A study of Homo sapiens with 4 samples.

Results

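The NF-κB pathway was examined through 10 of its transcripts (RELA, RELB, NFKB1, NFKB2, NFKBIA, TNFAIP3, IKBKB, TRAF6, BIRC3 and TAB2), by taking every listed m6A peak whose summit lay inside the hg19 span of 1 of these genes. The spans were given to the nearest 1 kb and covered 401 kb together. They held 29 of 52188 peaks listed for cells given chenodeoxycholic acid (CDCA) and 34 of 63093 peaks listed for control cells. The series compared GES-1, a cell line labelled as gastric epithelial, given CDCA, a primary bile acid, at 100 µM for 48 h, with the same line left untreated. Each condition had 1 m6A immunoprecipitation library, whose peak list was analysed here, and 1 input library, which was not analysed here as a sample of its own. Both conditions shared the cell line and RPMI-1640 medium, and ribosomal RNA was removed before libraries were made.

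NF-κB is a family of dimeric transcription factors held in the cytoplasm by inhibitors of the IκB type. Receptors for cytokines and microbial products act through adaptors such as TRAF6 and through the TAB proteins to activate the IκB kinases, which mark the inhibitors for destruction and free the dimers to enter the nucleus. Among the genes the dimers then switch on are their own inhibitors, so the pathway limits itself, and it is a main route of inflammatory signalling in the stomach. N6-methyladenosine (m6A) is a methyl mark on adenosines within messenger RNA, known to be dense around stop codons and in 3′ untranslated regions.

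With 1 library per condition there was no replicate check, and no p-value between conditions was computed. The values given for a peak are the authors' own. They are the fold enrichment, the height at the summit, and −log10 q, the significance after correction within the list. Fold enrichment was taken here as summit height plus 1 over local background plus 1. The 2 lists were made separately, so these values are set side by side and show no change in methylation by themselves. The lists skip 47941 (CDCA) and 47060 (control) of their running peak numbers, and fold enrichments start at 6.0 in both. A gene without a listed peak is therefore not a gene without m6A, and less methylation and less RNA of a transcript cannot be told apart here. Heights were whole multiples of 0.640 in the CDCA list and 0.862 in the control list. If such a step is 1 fragment, the lowest listed summits rested on 15 fragments (CDCA) and 12 fragments (control).

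Peaks shared by both lists were found in IKBKB, TRAF6 and TAB2 alone, and RELA and NFKB2 had no peak in either list. IKBKB, TRAF6 and TAB2 together held 17 of 29 CDCA peaks (58.6%) and 23 of 34 control peaks (67.6%), in 45.6% of the span length. These genes were grouped after their shared peaks were seen, so the shares describe them and test nothing. NFKB1, a subunit gene, had the second highest number of CDCA peaks, 8. In CDCA cells 7 of the 10 genes had a peak and in control cells 7 had one, 6 of them in both. The CDCA number of pathway peaks was 85.3% of the control number, against 82.7% over all peaks of the lists. TAB2 and NFKB1 held 17 of the 29 CDCA peaks and 18 of the 34 control peaks, and their spans made up 52.6% of the 401 kb. Per length, the 10 spans held 7.23 CDCA peaks and 8.48 control peaks per 100 kb.

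**Figure D1:**
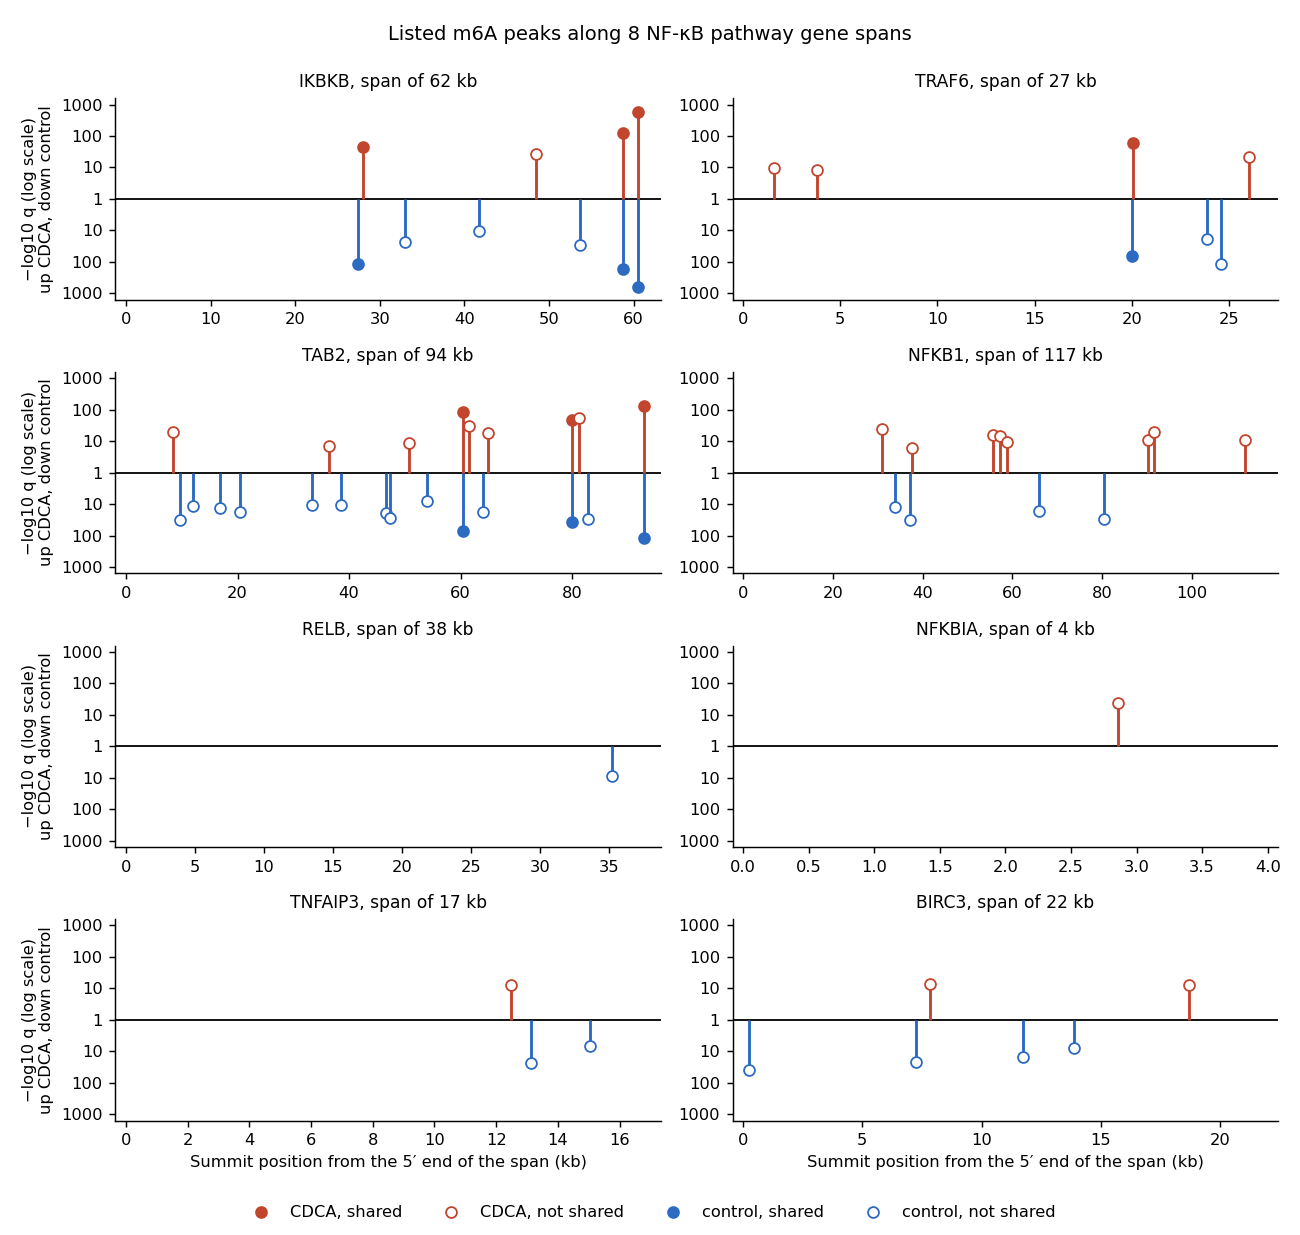
Position of every listed peak along the 8 spans that held one, as distance of the summit from the 5′ end of the span in kb (horizontal) against −log10 q on a log scale (vertical), with CDCA peaks drawn upward and control peaks downward. Filled circles are peaks that overlapped a peak of the other list. The filled pairs stand in IKBKB, TRAF6 and TAB2, and the tallest is the IKBKB pair near the 3′ end, at 572 in CDCA and 621 in control.

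Pathway peaks found in both libraries made up a share whose interval held that of the lists as a whole. Peaks with 1 bp or more in common with the other library's list were called shared. In the CDCA list 7 of 29 pathway peaks were shared (24.1%, exact 95% interval 10.3 to 43.5), against 22.2% of all CDCA peaks. In the control list 7 of 34 were shared (20.6%, 8.70 to 37.9), against 18.2% of all control peaks. These intervals cover counting error only, and peaks of 1 transcript are not independent of each other. Strong peaks, those whose −log10 q reached 100, numbered 3 of 29 in CDCA (10.3%, 2.19 to 27.4), against 7.9% of all CDCA peaks. They numbered 5 of 34 in control (14.7%, 4.95 to 31.1), against 7.77% of all control peaks. The list-wide shares lie inside these intervals. A −log10 q of 20 was reached by 13 of 29 CDCA pathway peaks (44.8%), against 33.8% of all CDCA peaks, and by 18 of 34 control pathway peaks (52.9%), against 49.8% of all control peaks. With both lists limited to these peaks, the shared share was over 1.5 times as large. It was then 7 of 13 in CDCA (53.8%, 25.1 to 80.8), against 43.8% of all such CDCA peaks, and 7 of 18 in control (38.9%, 17.3 to 64.3), against 24.5% of all such control peaks.

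IKBKB encodes IKKβ, the kinase that phosphorylates IκB in the canonical pathway, and its span held the most significant peaks of the 10 genes. The leading site lay at chr8:42188360-42189382 in CDCA cells and chr8:42188304-42189427 in control cells. Its fold enrichment was 19.2 in CDCA and 16.1 in control, its height 651 and 772, and its −log10 q 572 and 621. It was among the top 1.39% of the CDCA list and the top 1.24% of the control list by −log10 q. The summits were 24 bp apart and stood 1445 bp (CDCA) and 1421 bp (control) from the 3′ end of the span. The local background under it was the highest of all pathway peaks in control, at 47.0, and was 33.0 in CDCA. The RefSeq gene table (GRCh38.p14) places another gene over IKBKB, and the lists give no strand. A peak in this span can therefore belong to another transcript.

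Beside this site a narrower shared peak lay 3217 bp (CDCA) and 3204 bp (control) from the 3′ end, at chr8:42186689-42186924 and chr8:42186656-42186929. Its fold enrichment was 18.97 in CDCA and 22.9 in control, and its −log10 q was 120.4 and 167. Both IKBKB sites near the 3′ end were thus strong in both libraries, with summits at most 24 bp apart. The third shared site was drawn differently in the 2 lists. In CDCA cells it was 974 bp long, at chr8:42155199-42156172, with a fold of 9.32 and a −log10 q of 44.8. In control cells it was 348 bp long, at chr8:42155248-42155595, with a fold of 19.97 and a −log10 q of 119. The CDCA peak enclosed the whole control peak, but its summit lay 575 bp away, outside it. The remaining IKBKB peaks were weaker: 1 in CDCA, 4622 bp from the nearest control peak, with a −log10 q of 26.1, and 3 in control, with 10.39 to 28.5.

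TRAF6, a ubiquitin ligase that relays signals from Toll-like and interleukin-1 receptors, had 4 CDCA and 3 control peaks, of which 1 pair was shared. The pair lay at chr11:36511685-36512150 in CDCA and chr11:36511564-36512168 in control, with summits 33 bp apart. Its fold enrichment was 6.24 in CDCA and 11.8 in control, its height 136 and 93.2, and its −log10 q 59.4 and 66.4. The local background was 21 in CDCA and 7.0 in control. The CDCA fold was thus close to 6.0, the lowest fold in either list.

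The most significant TRAF6 peak was listed in control cells alone. It lay at chr11:36507243-36507498, 2402 bp from the 3′ end of the span, with a fold of 20.7 and a −log10 q of 119. The nearest CDCA peak, at chr11:36505815-36506094, was 1149 bp away and had a fold of 10.9 and a −log10 q of 22.3. Between the CDCA peaks on its left and right, 2 peak numbers were skipped. A skipped number gives no position, and why it is missing is not stated in the sources used here. A further control peak beside it had a −log10 q of 18.2, and 2 weak CDCA peaks near the 5′ end had 8.11 and 9.29.

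TAB2, an adaptor that binds ubiquitin chains and brings the kinase TAK1 to TRAF6, held the most peaks of any of the 10 genes, 9 in CDCA and 14 in control. Per length it held 0.957 CDCA and 1.49 control peaks per 10 kb. Of these, 3 pairs were shared, and each lay at nearly the same summit in both libraries. The pair nearest the 3′ end, at chr6:149731666-149731968 in CDCA and chr6:149731661-149731978 in control, was the strongest. It had a fold of 7.38 in CDCA and 6.95 in control, a height of 265 and 256, a background of 35 and 36 and a −log10 q of 131 and 121. Its summits were 62 bp apart.

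The middle pair of TAB2 had its summit at the same base, 149719000, in both lists. It was 785 bp long in CDCA (chr6:149718610-149719394) and 494 bp long in control (chr6:149718816-149719309), with a fold of 9.82 in CDCA and 9.32 in control and a −log10 q of 45.33 and 36.3. The pair furthest from the 3′ end had summits 8 bp apart, at chr6:149698983-149699557 in CDCA and chr6:149699116-149699537 in control. Its fold was 6.21 in CDCA and 7.77 in control, over a background of 31 and 17, and its −log10 q was 85.0 and 72.0.

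The other TAB2 peaks, 6 in CDCA and 11 in control, were each listed in 1 library. The most significant was a CDCA peak at chr6:149720059-149720316, with a fold of 13.5 and a −log10 q of 52.7. It was 750 bp from the nearest control peak, and the control peaks on both sides of it had consecutive numbers, so no control peak was numbered between them. The most significant of the control list's own peaks lay at chr6:149648604-149648806, with a fold of 13.9 and a −log10 q of 32.9. The lists give no strand, and the RefSeq gene table (GRCh38.p14) places SUMO4, TAB2-AS1 and 2 pseudogenes within TAB2, so a peak in this span can belong to another transcript. The span used here was 94 kb, while RefSeq gives TAB2 193.7 kb, so part of the gene as RefSeq draws it was not covered.

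**Figure D2:**
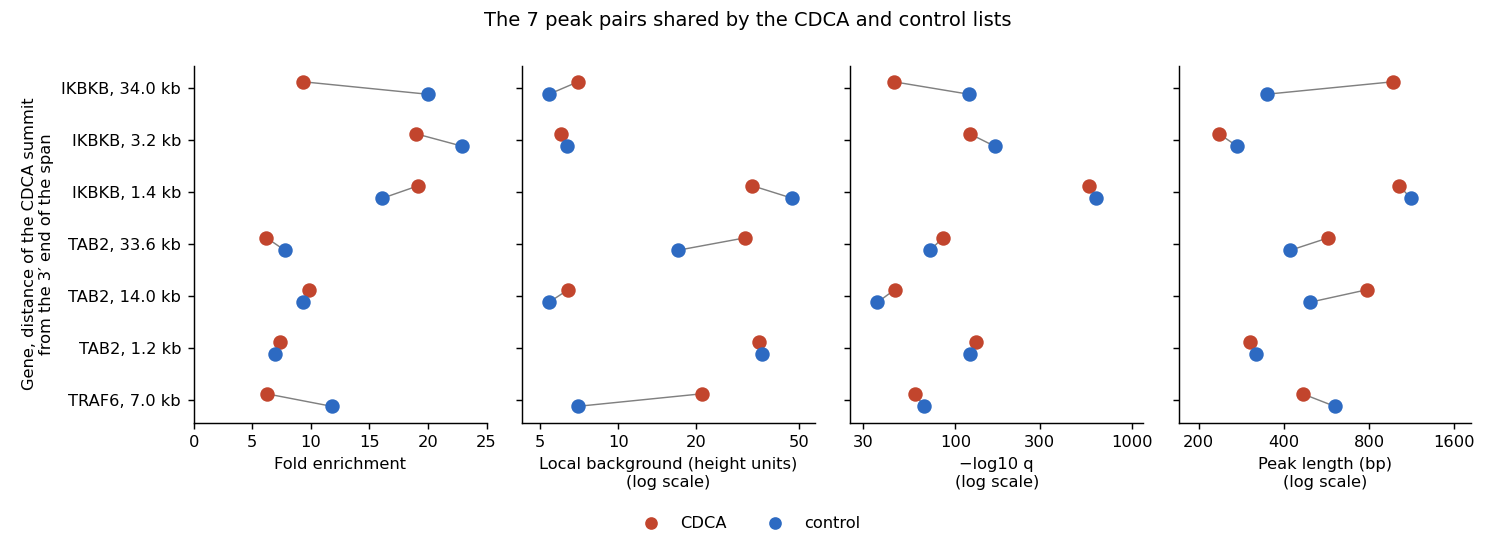
The 7 shared peak pairs of IKBKB, TAB2 and TRAF6, with CDCA (red) above control (blue) in each row and the distance of the CDCA summit from the 3′ end of the span beside the gene name. Panels give fold enrichment, local background in height units, −log10 q and peak length in bp. The points lie closest in fold for the TAB2 pair nearest the 3′ end (7.38 in CDCA, 6.95 in control) and the middle TAB2 pair (9.82 in CDCA, 9.32 in control). They lie furthest apart in fold for the TRAF6 pair (6.24 in CDCA, 11.8 in control) and the IKBKB pair at 34.0 kb (9.32 in CDCA, 19.97 in control).

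The genes of the DNA-binding subunits had few or weak peaks, and none was shared. Over all listed peaks, whatever their significance, 22.2% of the CDCA list and 18.2% of the control list were shared. Those shares are not matched to weak peaks. RELA encodes p65, the main activating subunit, and NFKB2 the p100 precursor of p52 in the alternative pathway. Neither span held a listed peak in either library. Each of these spans is 10 kb, and the 10 spans together held 7.23 CDCA and 8.48 control peaks per 100 kb. Whether the 10 kb length has to do with this lack of listed peaks was not tested. For RELA, 1 CDCA number and 4 control numbers were skipped between the listed peaks that flank the span, and for NFKB2 6 and 8 were. The nearest listed peaks lay 7942 bp (CDCA) and 11956 bp (control) from the RELA span. RELB, the transactivating partner of p52, had no CDCA peak and 1 control peak at chr19:45539211-45539410, 2751 bp from the 3′ end. That peak had a fold of 7.05, a height of 13.8 and a −log10 q of 8.54, and 92.5% of the control list was at least as significant. Across it, 8 CDCA numbers were skipped.

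NFKB1, which encodes the p105 precursor of p50, had the most peaks of these subunit genes, 8 in CDCA and 4 in control. None of them overlapped a peak of the other list. Over all peaks, whatever their significance, 22.2% (CDCA) and 18.2% (control) did. Those shares are not matched to the weak peaks of NFKB1, so no deficit can be read from them. The span is 117 kb, so NFKB1 held 0.684 CDCA and 0.342 control peaks per 10 kb. The 10 spans together, NFKB1 among them, held 7.23 CDCA and 8.48 control peaks per 100 kb. NFKB1 stood close to that density in CDCA and below it in control. The CDCA peaks had a −log10 q of 5.84 to 24.3 and heights of 9.59 to 23.0, or 15 to 36 steps. The control peaks had a −log10 q of 12.8 to 31.3 and heights of 15.5 to 38.0, or 18 to 44 steps. Counting from a −log10 q of 20, there was 1 in CDCA and there were 2 in control. Over all peaks, 33.8% of the CDCA list but 49.8% of the control list reached that level. The limit thus removes more CDCA than control peaks in general, and the changed order is not particular to NFKB1.

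The strongest CDCA peak of NFKB1 lay at chr4:103452841-103453068, with a fold of 13.8 and a −log10 q of 24.3. The strongest control peak lay at chr4:103459016-103459278, with a fold of 12.98 and a −log10 q of 31.3, 156 bp from a CDCA peak with a −log10 q of 5.84. In both cases the other list had no skipped number beside the peak. Of the CDCA peaks, 6 stood at the lowest local background of their list, as did 2 of the control peaks. None lay in the last 5 kb of the span: the summits closest to the 3′ end were 5180 bp (CDCA) and 36529 bp (control) away. RefSeq places NFKB1-AS1 and 2 further noncoding genes over NFKB1, and reads from either strand cannot be told apart.

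The genes NFKBIA, TNFAIP3 and BIRC3 encode inhibitors and a survival factor, and are also known targets of NF-κB. None of their peaks was strong or shared, and their highest −log10 q was 24.3 in CDCA and 39.2 in control. Of all listed peaks, 7.9% (CDCA) and 7.77% (control) were strong, and 22.2% and 18.2% were shared. The shared percentages take in peaks of every significance and are not matched to weak peaks. NFKBIA encodes IκBα, which binds the dimers and is degraded on signalling. It had 1 CDCA peak at chr14:35871006-35871223, 1142 bp from the 3′ end, and no control peak. The peak had a height of 48.6, a fold of 7.09 over a background of 6.0, and a −log10 q of 24.3. Across it 6 control numbers were skipped, in a stretch where the nearest listed control peak was 141776 bp away.

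TNFAIP3 encodes A20, an enzyme that edits ubiquitin chains and shuts the pathway down. It had 1 CDCA peak at chr6:138200386-138200615, with a fold of 9.36 and a −log10 q of 13.1. In control cells it had 2 peaks, at chr6:138201009-138201221 (fold 13.5, −log10 q 23.8) and chr6:138202948-138203147 (fold 6.31, −log10 q 6.78). All 3 lay in the last 5 kb of the span and at the lowest local background of their lists. The CDCA peak and the nearer control peak were 394 bp apart and did not overlap. RefSeq places WAKMAR2 over TNFAIP3, so these peaks can belong to another transcript.

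BIRC3 encodes cIAP2, a ubiquitin ligase of the tumour necrosis factor receptor complex that limits cell death. It had 2 CDCA peaks, with a −log10 q of 13.1 and 14.3, and 4 control peaks, with 7.92 to 39.2. The most significant control peak, at chr11:102188145-102188377, stood near the start of the gene and at the lowest local background of its list. Its summit was 261 bp from the 5′ end of the span, which is itself given to the nearest 1 kb. It had a fold of 19.3, a height of 33.6 and a −log10 q of 39.2. CDCA cells had no listed peak within 7336 bp. Between the CDCA peaks on its left and right, 4 numbers were skipped. A further CDCA and control pair lay 343 bp apart without overlap, at chr11:102195713-102196197 and chr11:102195136-102195370.

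As background, the start of BIRC3 is shown, from 250 bases before to 50 bases after it. The letters are from RefSeq, at chr11:102317234-102317533 on the plus strand of GRCh38.p14, which is another build than that of the peaks. Capitals mark matches to the κB consensus of NF-κB, searched on both strands.
BIRC3: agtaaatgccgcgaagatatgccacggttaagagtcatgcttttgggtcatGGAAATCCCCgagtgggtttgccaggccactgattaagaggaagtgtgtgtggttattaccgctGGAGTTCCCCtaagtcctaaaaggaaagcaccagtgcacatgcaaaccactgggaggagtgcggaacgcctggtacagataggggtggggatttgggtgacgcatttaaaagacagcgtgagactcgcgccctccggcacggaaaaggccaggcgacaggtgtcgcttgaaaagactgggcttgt

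The window held 2 matches, at bases 52 to 61 and 116 to 125, both on the minus strand and not overlapping. Both lie before the start of the gene, outside the transcript that could carry m6A. A match was found in 5.91% of all 35116 windows of this length in the table. Of the 10 pathway genes, 8 had a window, and 6 of these (NFKB1, NFKB2, NFKBIA, TNFAIP3, BIRC3 and TAB2) had a match in at least 1 of their windows. RELA and TRAF6 had none. Several genes had more than 1 window, so the share of genes and the share of windows are not alike, and 7 of the 13 pathway windows held a match. A match is a run of letters and not a binding site.

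Among the 10 genes, shared peaks stood on a higher local background than library-specific peaks and were taller and more significant. The background was at least 6.0 in CDCA and 5.40 in control under every shared peak, with medians of 21 and 7.0. Under the library-specific peaks it was at most 6.0 in CDCA and 5.36 in control, with medians of 0.910 and 1.40. Over all peaks of the lists the medians were 3.4 (CDCA) and 4.0 (control) for shared peaks, and 0.900 and 1.14 for the others. The median −log10 q was 85.0 in CDCA and 119 in control for shared peaks, and 14.3 and 18.2 for the others. Heights were 112 to 1017 steps in CDCA and 68 to 895 in control for shared peaks, and 15 to 104 and 12 to 143 for the others. The ranges of fold enrichment overlapped. Shared peaks had a median fold of 9.32 in CDCA and 11.8 in control, against 8.94 and 9.29 for library-specific peaks. At the lowest background of their list stood 10 of 29 CDCA peaks (34.5%), against 36.7% of all CDCA peaks, and 7 of 34 control peaks (20.6%), against 32.8% of all control peaks. All of these were in NFKB1, TNFAIP3, TRAF6 or BIRC3, and none was shared.

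**Figure D3:**
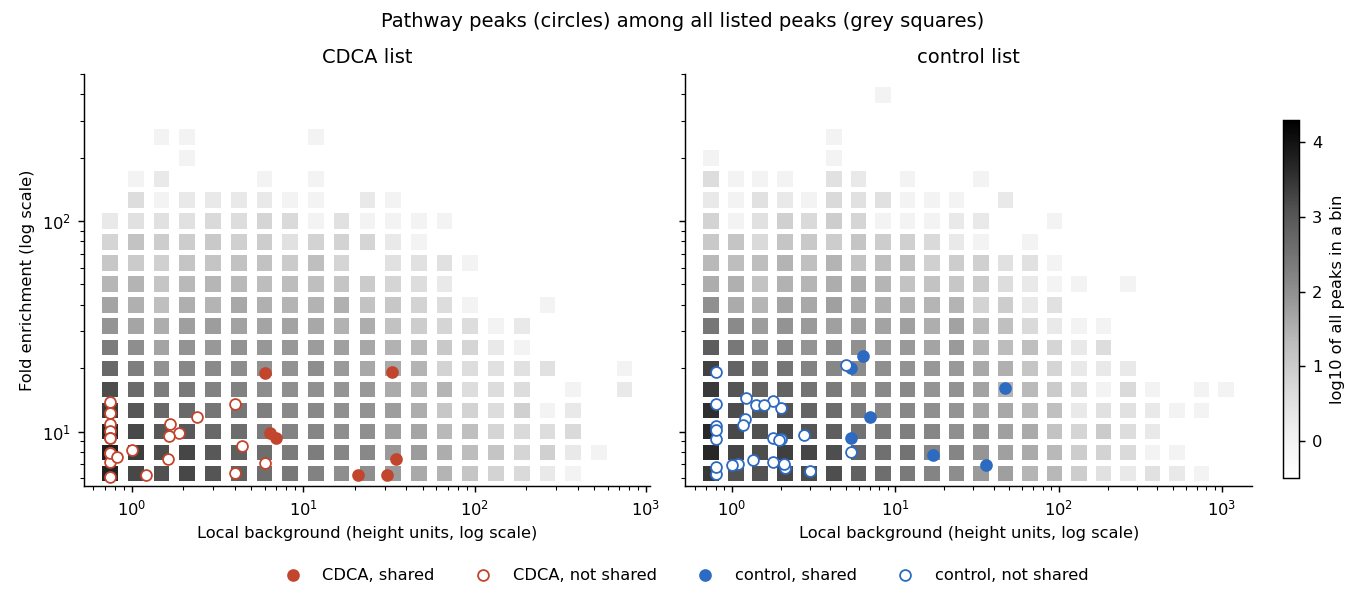
Fold enrichment (vertical, log scale) against local background in height units (horizontal, log scale) for the pathway peaks (circles) over all peaks of the CDCA list (left) and the control list (right), binned as grey squares whose shade is the log10 number of peaks. Filled circles are shared peaks. They stand at backgrounds from 6.0 in CDCA and 5.40 in control upward, to the right of nearly all open circles.

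Most library-specific pathway peaks had no peak of the other list nearby. In CDCA 6 of 22 (27.3%) had a control peak within 1000 bp, against 15.6% of all CDCA-only peaks. In control 4 of 27 (14.8%) had a CDCA peak that close, against 13% of all control-only peaks. These close neighbours were in TAB2, NFKB1, TNFAIP3 and BIRC3. A skipped number of the other list stood beside 15 of 22 CDCA-only peaks (68.2%), against 63.2% of all CDCA-only peaks. It stood beside 21 of 27 control-only peaks (77.8%), against 73.2% of all control-only peaks.

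The strong peaks of the 10 genes stood in IKBKB, TRAF6 and TAB2, and all but 1 lay near the 3′ end. In the last 5 kb of the spans stood 7 of 29 CDCA peaks (24.1%, 10.3 to 43.5) and 8 of 34 control peaks (23.5%, 10.7 to 41.2). These stretches made up 12.2% of the 401 kb, a share inside both intervals. All 3 strong CDCA peaks and 4 of the 5 strong control peaks were there, the exception being the IKBKB control peak 34581 bp from the end. The 3 strong CDCA peaks each overlapped a strong control peak, so these sites are counted in both lists. Among the 35 further genes of the pathway described next, 12 of 59 CDCA peaks (20.3%) and 19 of 77 control peaks (24.7%) were in the last 5 kb. These stretches made up 15.1% of their spans. Of their strong peaks, 3 of 6 in CDCA and 4 of 8 in control were in the last 5 kb. The most significant of them, in BCL2L1, lay 57691 bp (CDCA) and 57714 bp (control) from the end. The lists carry no exons, and introns and exons were not separated, so a share of span length is not a share of mature transcript.

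The rest of the pathway was described through 35 further genes of the same route, chosen by role. Their spans covered 1117 kb and held 59 CDCA and 77 control peaks, or 5.28 and 6.89 per 100 kb, against 7.23 and 8.48 for the 10 genes. Shared peaks were 18 of 59 in CDCA (30.5%, 19.2 to 43.9) and 18 of 77 in control (23.4%, 14.5 to 34.4). Over all peaks of the lists 22.2% (CDCA) and 18.2% (control) were shared, and both shares lie inside these intervals. By gene, 14 of the 35 had a shared peak, against 3 of the 10. These were 9 of the 16 kinases and adaptors, 1 of the 7 inhibitors, 3 of the 11 targets, and REL, the remaining Rel protein.

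Among the kinases and adaptors, TAB1, a partner of TAK1, had the strongest site, with a −log10 q of 672 in CDCA and 799.5 in control and a fold of 29.9 and 27.6. MYD88, the adaptor of Toll-like receptors, had 97.2 in CDCA and 135 in control for its 1 shared peak. TRADD, an adaptor of the tumour necrosis factor receptor, had 81.9 and 150.2. RIPK1, a kinase of the same receptor complex, reached 179.9 in CDCA and 67.1 in control, at different sites, 2212 bp (CDCA) and 17205 bp (control) from the 3′ end. MAP3K14, the kinase of the alternative pathway, reached 18.6 in CDCA and 115 in control. TRAF2, a ubiquitin ligase, reached 23.6 in CDCA and 158 in control, also at different sites, 15630 bp (CDCA) and 1659 bp (control) from the 3′ end, with no shared peak.

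Among the inhibitors, TNIP1, a partner of A20, had a CDCA-only peak with a −log10 q of 211, against at most 26.0 in its control peaks, which was reached at another site. CYLD, which removes ubiquitin chains, had 99.1 in CDCA and 107 in control. Among the targets, BCL2L1, which encodes the survival protein BCL-XL, had the strongest peak of all 45 genes, with 1215 in CDCA and 1428 in control. ICAM1, an adhesion molecule, had 463 in CDCA and 464 in control. RefSeq places other genes over several of the further genes, BCL2L1, TAB1 and ICAM1 among them, so their peaks can belong to other transcripts. No peak was listed in either library for IRAK1, BIRC2, BCL3, TNIP2, CXCL8, IL6, CCL2 or IL1B. The further spans were written from general knowledge of hg19 and were not checked against an hg19 annotation. Their lengths were within 2 kb of the RefSeq gene length for 32 of 35 genes, the exceptions being REL, RIPK1 and TNFAIP2.

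**Figure D4:**
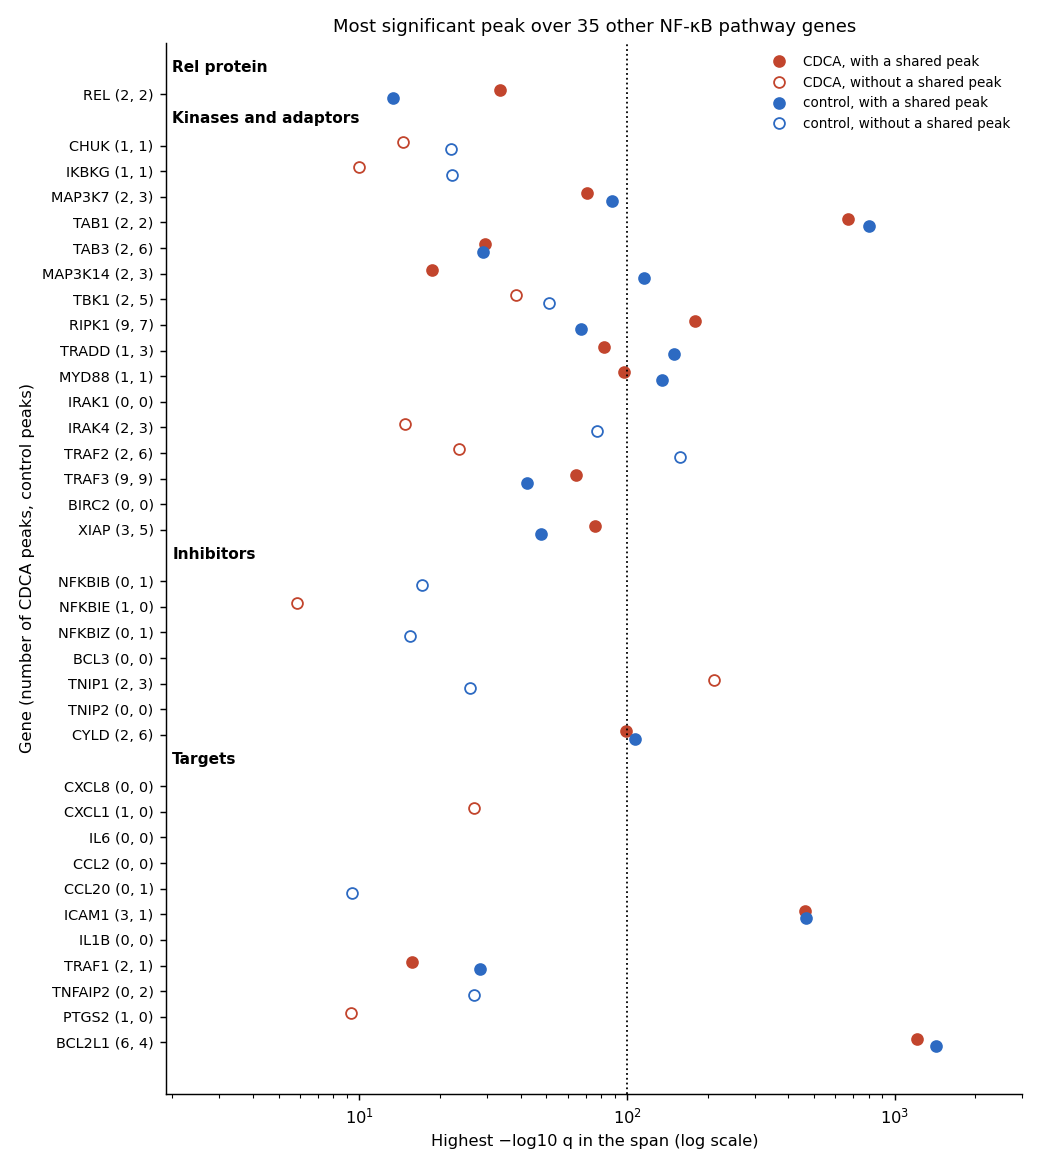
Highest −log10 q (horizontal, log scale) in the span of each of 35 further pathway genes, grouped by role, with CDCA (red) drawn above control (blue) in each row and the number of CDCA and control peaks in brackets. Filled circles mark genes with a peak shared by both lists, and the dotted line is a −log10 q of 100. BCL2L1, TAB1 and ICAM1 stand furthest right in both lists, and 8 genes have no circle.

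The label of the cells could not be checked from these lists. None of 9 marker genes had a listed peak in either library, neither the epithelial genes KRT8, KRT18, EPCAM and CDH1 nor the gastric genes TFF1, TFF2 and GKN1, VIM or the leukocyte gene PTPRC. The marker spans were also written from general knowledge, and the KRT8 span of 9 kb covered a small part of the 52.7 kb that RefSeq gives the gene. Peaks show methylated RNA at a fold of 6.0 or more and not expression.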

How the data were processed

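Per the labels, RNA of GES-1 cells was immunoprecipitated with an m6A antibody and sequenced from both ends for 150 bp. The tools MACS2 2.1.0 and TopHat2 2.0.13 and the build hg19 come from the submitters' processing notes, which assign them no role here. The authors deposited 1 peak list per immunoprecipitation library, not pooled. Per the file headers, each deposited row gives positions counted from 1, a height (a signal), a fold enrichment (a ratio), and −log10 of a p-value and a q-value. The sources used here do not give the thresholds.

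Peaks were assigned by summit to hg19 spans rounded to 1 kb. The 10 genes, the 35 further genes and the markers were chosen with earlier results of these data known. Named were all 10 genes, with their leading, shared and strong peaks, and further genes with a strong peak or none. Other single peaks described were chosen after their values were seen. Local background was computed as height plus 1, over fold enrichment, minus 1. Height steps were called whole within 0.05 steps. A peak was at the lowest background when within 0.01 of its list's minimum. Shares carry exact Clopper-Pearson 95% intervals. Alternatives changed the peaks used, the spans, the overlap rule and the thresholds. Scripts ran on scipy 1.17.1, pandas 2.3.3 and numpy 2.4.6 under Python 3.11.15, with figures from matplotlib 3.10.9, and the overlap and distance steps were tested on simulated data.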

Additional observations from a re-analysis of the deposited data

How the results depend on the processing

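The depth in reads is unknown, and 1 library per condition leaves library-to-library variation unmeasured. No paired analysis was possible because each condition had 1 library and no test was made. Of 57 recomputed values over 10 alternatives, 49 stayed inside the interval of the reported value or within 1.5 times the reported count. Some of these could not move. An alternative that cut both lists to equal length kept the whole CDCA list, so counts of CDCA peaks were fixed. A limit at a −log10 q of 20 could not change the number of strong peaks. The 49 are therefore no measure of robustness. Counted from a −log10 q of 20, pathway peaks numbered 13 in CDCA and 18 in control, and 53.8% and 38.9% of them were shared, against 43.8% and 24.5% of all listed peaks under the same limit (a comparison added after seeing the data). Both shares lie above the intervals reported without the limit. At a fold of at least 10 they numbered 9 in CDCA and 16 in control, and 1 gene, IKBKB, had a shared peak. Strong CDCA peaks numbered 6 when counted from a −log10 q of 50. The 2 limits leave fewer peaks and the lower bound for strong peaks takes in more, so the counts of peaks move that way by construction. All 7 shared pathway peaks of each list passed the −log10 q of 20, with at least 44.8 in CDCA and 36.3 in control. That limit therefore left out library-specific pathway peaks only, and the shared percentages rose with the smaller totals. Why the shared peaks were the more significant ones was not tested. Of 100 counts of peaks per gene, 77 stayed within 1.5 times and 23 did not. The spans of the genes could not be checked against an hg19 annotation.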
